A study of Mus musculus with 8 samples.

Results

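The 4 canine genes ENSCAFG00000030616, ENSCAFG00000031490, ENSCAFG00000031885 and ENSCAFG00000032276 had the highest mean of all canine genes over the 8 libraries of a mouse xenograft study of osteosarcoma, a bone cancer. They are 4 of 20716 canine genes and 4 of 52016 genes in the deposited table, which lists 31300 mouse genes beside the canine ones. RNA from serum exosomes, small membrane vesicles that cells release into blood, was sequenced from NCr nu/nu mice, an immunodeficient nude strain. The groups are the week 0 pool, from the serum of all mice before injection, and 3 pools taken at necropsy in week 8, from mice injected in the tibia with 10 µl of phosphate-buffered saline (PBS), with 100000 OSCA-32 cells or with 100000 OSCA-40 cells. OSCA-32 and OSCA-40 are osteosarcoma cell lines from dogs. Each group has 2 libraries of pooled serum. Whether the 2 libraries hold pooled serum of different animals or are repeats of 1 pool is not labelled. The spread that the tests use is that between libraries and may be technical only. In that case the p-values below are too small. The week 0 and PBS libraries are called tumour-free below, since these mice carried no canine cells, and the OSCA-32 and OSCA-40 libraries are called tumour libraries.

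When a tumour of one species grows in a host of another, its transcripts can be told from those of the host where the sequences of the species differ. Vesicles shed by a tumour carry part of its RNA into blood, which is the basis of blood tests that look for residual disease. Transcripts that are alike between species, or between genes of 1 species, cannot be told apart in this way, and kallisto, the program named in the submitters' processing notes, divides reads that fit several transcripts among them by estimation. Whether the 4 genes share sequence with each other or with mouse genes was not tested. The gene tables used here name mouse genes only and matched 0 of the 20716 canine identifiers, so the 4 genes are described by their identifiers and values, and no role or location is given for them.

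The deposited values are whole numbers that sum to between 977106 and 989183 in each library, so a value is a share of its library and the depth behind it is unknown. They behave as TPM, a relative abundance that is corrected for transcript length. A rise of one gene lowers all others in the same library. Mouse genes held 82.6% to 85.3% of the tumour-free libraries, 55.3% and 56.7% of the OSCA-32 libraries and 31.6% and 29.3% of the OSCA-40 libraries. Values are therefore given in 3 ways: as deposited, as a percentage of the summed mouse genes of the same library, and scaled on the bulk of the genes (a divisor of 0.69 and 0.71 for OSCA-32 and of 0.34 and 0.33 for OSCA-40, against 1 for the first week 0 library). In bulk serum, more vesicles with a transcript and more of it per vesicle cannot be told apart. Because canine genes are also listed in mice without canine cells, such a value cannot be assigned to grafted cells from the table alone.

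The genes were chosen by their mean over all 8 libraries, so their levels, shares and sums are a description. That mean was 143388 for ENSCAFG00000030616, 105970 for ENSCAFG00000031490, 33941 for ENSCAFG00000031885 and 15801 for ENSCAFG00000032276. The canine genes of rank 5 and 6, just outside, had means of 7787 and 4100. Leaving any one of the week 0, PBS or OSCA-32 groups out of the mean gave the same 4 genes. Without the OSCA-40 group ENSCAFG00000030616 fell to rank 442 among canine genes, and the other 3 took ranks 1 to 3.

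The 4 genes together held 11.0% and 11.9% of the library total at week 0 and 10.1% and 10.6% in PBS mice. They held 38.2% and 36.8% with OSCA-32, and 61.1% and 63.1% in the OSCA-40 libraries. All 4 tumour libraries lay above all 4 tumour-free libraries. As group means the summed share was 11.5% ± 0.685 (SD, n = 2) at week 0, 10.4% ± 0.334 with PBS, 37.5% ± 1.03 with OSCA-32 and 62.1% ± 1.40 with OSCA-40. The average difference between tumour and tumour-free libraries was 38.9 percentage points, given as a description, since the same values chose the genes.

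**Figure D1:**
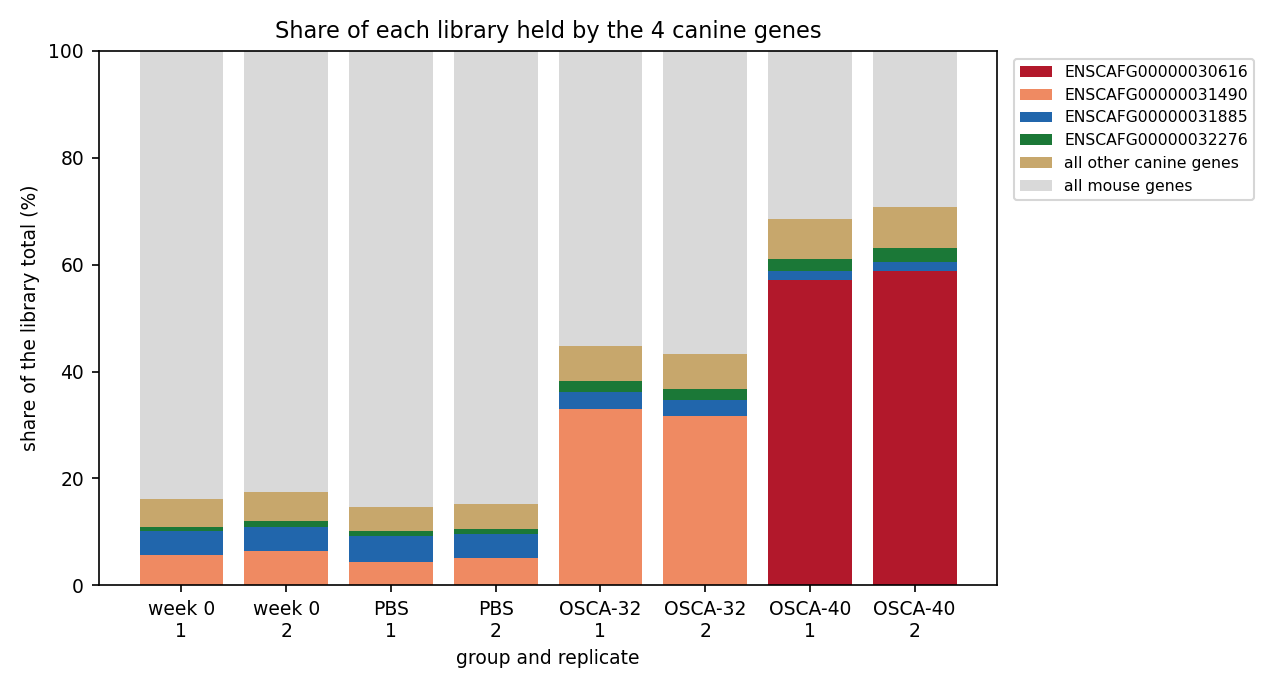
Share of each library total (vertical axis, %) held by each of the 4 canine genes, by all other canine genes and by all mouse genes, stacked in each of the 8 libraries (horizontal axis, group and replicate). ENSCAFG00000031490 fills 33.0% and 31.7% of the OSCA-32 libraries and ENSCAFG00000030616 fills 57.1% and 58.9% of the OSCA-40 libraries.

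Which gene held that share differed between the lines. ENSCAFG00000030616 was listed at 0 in all 4 tumour-free libraries, at 0 and 13 with OSCA-32, and at 564602 and 582489 with OSCA-40. The OSCA-40 libraries stand apart from the 6 others, and their values were 57.1% and 58.9% of the library total and 83.4% and 83.2% of all canine values. It ranked first among all genes of the table there. No fold is given for this gene, because the groups it would be set against are listed at 0 or near it.

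ENSCAFG00000031490 was the gene with the highest value among canine genes at week 0. Its deposited values were 56069 and 63599 at week 0, 42333 and 49440 with PBS, 324687 and 311612 with OSCA-32, and 8 and 8 in the OSCA-40 libraries. The OSCA-32 libraries were the highest, the OSCA-40 libraries the lowest, and neither overlapped the tumour-free range. On scaled values the order was the same, and 0.673% of all genes tested showed it on that scale. Its share of the library was 5.73% and 6.50% at week 0 and 4.33% and 5.06% with PBS, and 33.0% and 31.7% with OSCA-32. With OSCA-32 it ranked first of all genes, and with OSCA-40 it ranked 2451 and 2291. ENSCAFG00000030616 was thus at or near 0 wherever ENSCAFG00000031490 was high, and the reverse held in the OSCA-40 libraries. The summed pair, put together after its values were seen, came to between 5.08% and 7.87% of the summed mouse genes in tumour-free libraries, to 59.7% and 55.9% with OSCA-32 and to 181% and 201% in the OSCA-40 libraries.

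ENSCAFG00000031885 went the other way as deposited. It stood at 42695 and 43474 at week 0, 48308 and 44196 with PBS, 30926 and 29589 with OSCA-32, and 16246 and 16094 in the OSCA-40 libraries. Each tumour library was below each tumour-free library, which also held for 49% of all 7872 genes tested. Set against the summed mouse genes of its own library, it barely moved. It came to 5.20% and 5.38% at week 0, 5.79% and 5.34% with PBS, 5.69% and 5.30% with OSCA-32, and 5.21% and 5.56% in the OSCA-40 libraries, and the groups overlap. Its highest and lowest percentages differed 1.11-fold.

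That steadiness can be read against other genes. None of the 213 other canine genes tested was as steady relative to the summed mouse genes, and 46 of those had a 0 in at least 1 library. Their median ratio of highest to lowest was 2.55, taken over the genes without a 0. Of 7655 mouse genes, 6 (0.0784%) were as steady, with a median ratio of 2.20. Where the mean was 1000 or more, the median ratio was 3.61 over 17 canine genes, with the 4 left out, and the lowest was 1.31. It was 1.33 over 59 mouse genes, of which 2 were as steady as ENSCAFG00000031885.

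ENSCAFG00000032276 was higher in tumour libraries as deposited and relative to the summed mouse genes, and took a smaller part of the canine sum there. It stood at 8648 and 9750 at week 0, 8539 and 10100 with PBS, 20394 and 20232 with OSCA-32, and 23298 and 25448 in the OSCA-40 libraries. Each tumour library exceeded each tumour-free library, an arrangement that 0.965% of all genes tested and 30.9% of the canine genes tested showed in deposited values. Relative to the summed mouse genes it came to 1.02% to 1.22% in the tumour-free libraries, 3.75% and 3.63% with OSCA-32, and 7.47% and 8.79% in the OSCA-40 libraries. On that scale the OSCA-40 libraries lay above the OSCA-32 libraries, and these above the tumour-free ones. As a share of the canine sum it was 5.50% to 6.78% in tumour-free libraries, 4.64% and 4.76% with OSCA-32, and 3.44% and 3.64% in the OSCA-40 libraries. Its rank among all genes went from 10 to 13 in tumour-free libraries to 5 with OSCA-32 and 3 with OSCA-40.

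**Figure D2:**
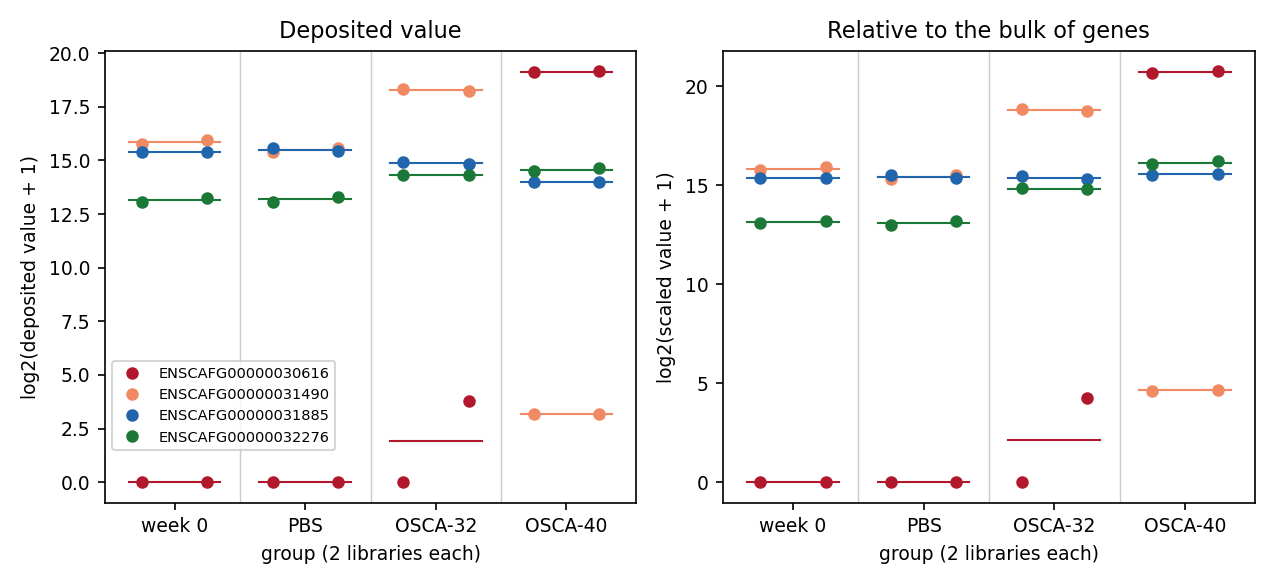
Values of the 4 canine genes in each library (points) with the mean of each group of 2 (lines), as log2(deposited value + 1) on the left and log2(scaled value + 1) on the right. ENSCAFG00000030616 and ENSCAFG00000031490 change places between OSCA-32 and OSCA-40, and ENSCAFG00000031885 lies level on the right, with scaled values from 41725 to 49287.

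**Figure D3:**
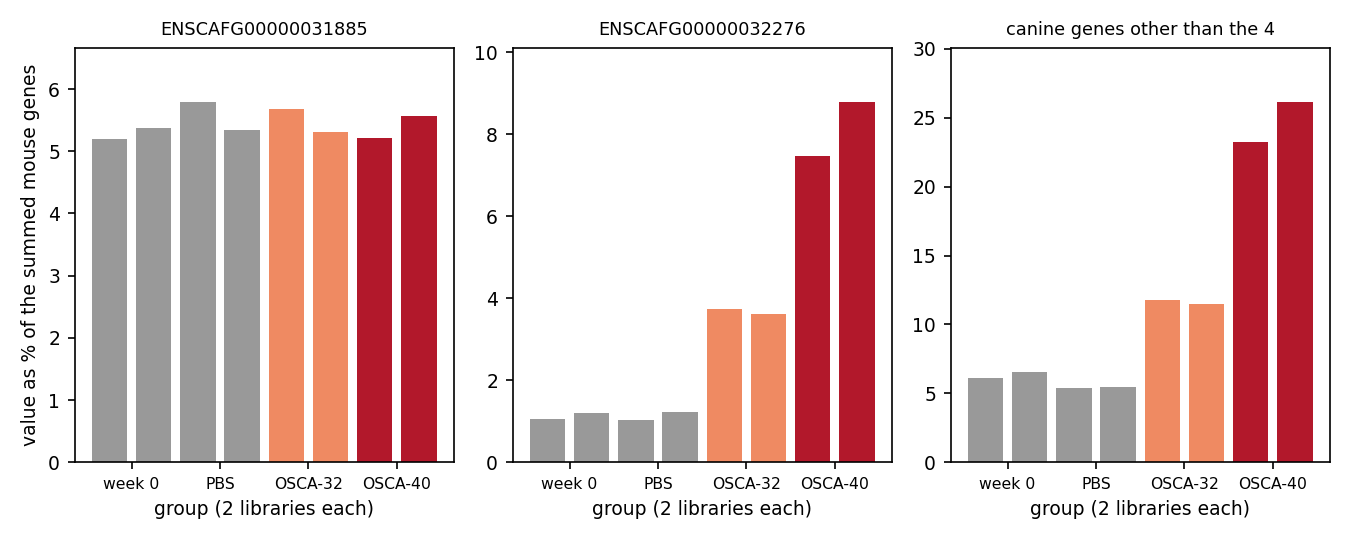
Value as a percentage of the summed mouse genes of the same library (vertical axes, each from 0 and each with its own range) for ENSCAFG00000031885, ENSCAFG00000032276 and the sum of the canine genes other than the 4, 1 bar per library. The first stays between 5.20% and 5.79%, and the second reaches 7.47% and 8.79% with OSCA-40.

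Ratios between the genes do not depend on the scaling. ENSCAFG00000031885 exceeded ENSCAFG00000032276 by 4.94-fold and 4.46-fold at week 0 and by 5.66-fold and 4.38-fold with PBS. The ratio was 1.52 and 1.46 with OSCA-32, and 0.697 and 0.632 in the OSCA-40 libraries, where the order of the genes turned. ENSCAFG00000031490 and ENSCAFG00000031885 were close without a graft, with ratios of 1.31 and 1.46 at week 0 and of 0.876 and 1.12 with PBS, where their order differed between the libraries. With OSCA-32 that ratio was 10.5 in both libraries. In order of group mean, deposited values ran ENSCAFG00000031490, ENSCAFG00000031885, ENSCAFG00000032276 at week 0. With PBS the first pair did not differ beyond their spread (45886 ± 5025 and 46252 ± 2908, SD, n = 2).

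Groups were compared with limma over 7872 genes, on log2(scaled value + 1), with Benjamini-Hochberg adjusted p-values over all of them. All 4 canine genes passed the filter on low values. Because the overall mean chose them, a p is given for a gene in a comparison only where the libraries outside that comparison also place it among the 10 highest canine genes. By that rule no p is given for ENSCAFG00000030616 in the comparisons with OSCA-40. The comparisons of OSCA-32 and of OSCA-40 with PBS share the PBS libraries.

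In OSCA-32 against PBS, 2 of the 3 genes other than ENSCAFG00000030616 passed, both as higher, where 1.08% of all genes passed in either direction. ENSCAFG00000031490 rose by a log2 fold change of 3.38 ± 0.09 (SE), which is 10.4-fold, with a limma adjusted p of 3.38e-06. ENSCAFG00000032276 rose by 1.71 ± 0.10, or 3.27-fold (limma adjusted p = 0.000268). ENSCAFG00000031885 stood at -0.03 ± 0.07 (limma adjusted p = 0.938). ENSCAFG00000030616, at 0 and 13 against 0 and 0, did not pass (limma adjusted p = 0.596), but it entered the test only through the OSCA-40 libraries. On library totals alone ENSCAFG00000031885 passed as lower, at -0.62 with a limma adjusted p of 0.00242, against a range of 0.00242 to 0.987 over all alternatives. Of the 217 canine genes tested 19.8% passed.

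In OSCA-40 against PBS, 2 of the 3 genes with a p passed, in opposite directions, where 6.85% of all genes passed. ENSCAFG00000031490 fell by 10.77 on the log2 scale, with an SE of 0.09 (limma adjusted p = 4.23e-09), from 42333 and 49440 to 8 and 8 as deposited. That SE reflects the spread between libraries and leaves out the whole-number step at a value of 8. ENSCAFG00000032276 rose by 3.04 ± 0.10, or 8.22-fold (limma adjusted p = 5.55e-06). Of the canine genes tested 60.4% passed. ENSCAFG00000031885 did not pass, at 0.13 ± 0.07 (limma adjusted p = 0.341). On library totals alone its sign turned, to -1.53 with a limma adjusted p of 3.88e-06, against a range of 3.88e-06 to 0.912 over all alternatives.

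In OSCA-40 against OSCA-32, which tests the difference between the lines itself, 2 of 3 genes passed, where 2.62% of all genes and 32.3% of the canine genes passed. ENSCAFG00000031490 was lower with OSCA-40 by a log2 fold change of -14.15 ± 0.09 (limma adjusted p = 6.17e-10). Its SE has the same limit, since the OSCA-40 values are 8 and 8. ENSCAFG00000032276 was higher by 1.33 ± 0.10, or 2.51-fold (limma adjusted p = 0.00128). ENSCAFG00000031885, at 0.16 ± 0.07, did not pass (limma adjusted p = 0.314). On library totals alone ENSCAFG00000032276 no longer passed, at 0.25 with a limma adjusted p of 0.0592, against a range of 0.000378 to 0.0592 over all alternatives. ENSCAFG00000031885 turned sign there, to -0.91 (limma adjusted p = 0.000113, range 0.000113 to 0.604).

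**Figure D4:**
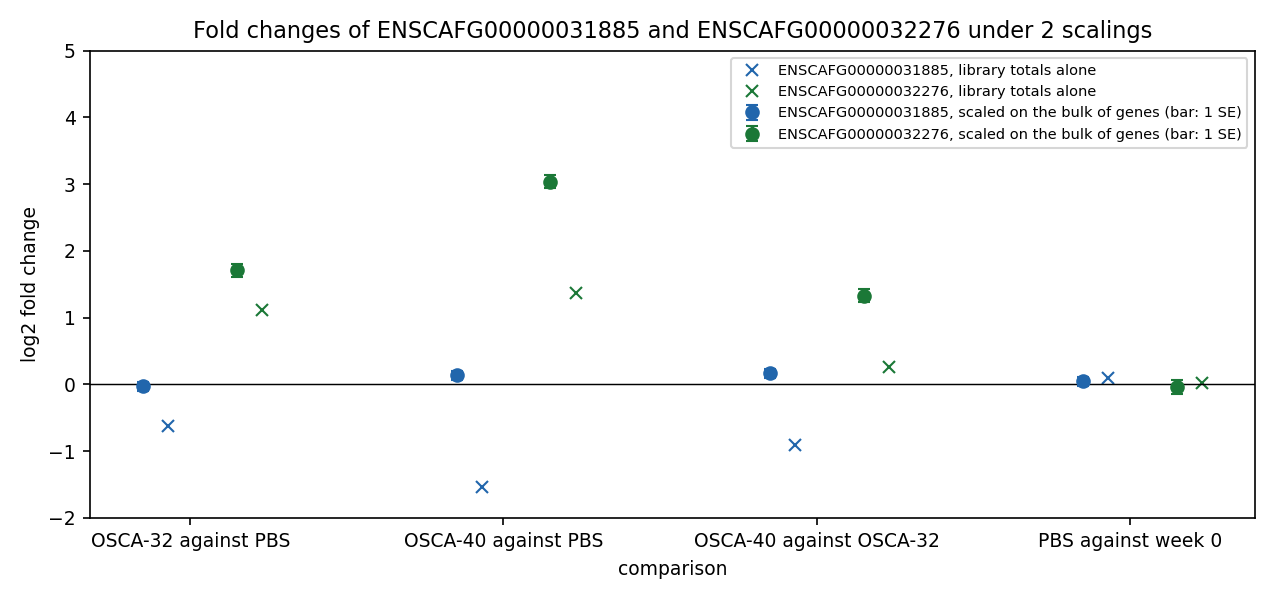
Log2 fold changes of ENSCAFG00000031885 and ENSCAFG00000032276 in the 4 comparisons, scaled on the bulk of the genes (circles, bars of 1 SE) or on library totals alone (crosses). For ENSCAFG00000031885 the crosses lie below the circles wherever a tumour group is compared with PBS, at -0.62 and -1.53.

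In PBS against week 0, limma called 0 of the 3 genes listed above 0, where 0.191% of all genes and 1.84% of the canine genes passed, and 1 of the 3 had an unadjusted p under 0.05. This was ENSCAFG00000031490, with a log2 fold change of -0.44 ± 0.09 (limma adjusted p = 0.356), and each PBS library was below each week 0 library. How many of all genes show either trait was not counted, so neither is read as a change. ENSCAFG00000031885 stood at 0.05 ± 0.07 and ENSCAFG00000032276 at -0.04 ± 0.10. ENSCAFG00000030616 was listed at 0 in all 4 of these libraries.

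The patterns were then looked for among the other genes tested, on scaled values. The stepwise order of ENSCAFG00000032276, with each OSCA-40 library above each OSCA-32 library and these above each tumour-free library, was shown by 3.66% of all genes and by 98 of the 213 other canine genes (46.0%). The order of ENSCAFG00000031490, above the tumour-free range with OSCA-32 and below it with OSCA-40, was shown by 0.673% of all genes, by none of the other canine genes and by 52 mouse genes. The arrangement of ENSCAFG00000030616, at 0 without a graft and above 0 in both OSCA-40 libraries, was shown by 0.495% of all genes and by 32 of the other canine genes (15.0%). Such genes pass the filter through tumour libraries alone, so these shares depend partly on the filter. ENSCAFG00000030616 would not have passed it without the OSCA-40 libraries. Every OSCA-40 library was above the 6 others for 12% of all genes, for 148 of the 213 other canine genes (69.5%), and for 3 of the 4 genes, ENSCAFG00000031490 being the exception. For ENSCAFG00000030616 this follows from its selection, which rests on the OSCA-40 libraries. For ENSCAFG00000031885 the margin is small, with scaled values of 47598 and 49287 against 41725 to 46455. It is absent relative to the summed mouse genes.

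The other canine genes are those that the same ranking over the same libraries left out, so they are not a wholly separate set. With the 4 genes removed from the canine values and from the library total, the canine share was 5.74% and 6.16% at week 0, 5.11% and 5.18% with PBS, 10.5% and 10.3% with OSCA-32, and 18.9% and 20.7% in the OSCA-40 libraries. The tumour libraries averaged 15.1% and the tumour-free libraries 5.55%. The difference of 9.56 percentage points gave p = 0.0286 by exact permutation over 70 splits, two-sided. This is the smallest p that 4 against 4 libraries allow, and each of the 4 tumour libraries was higher. The test counts each library as 1 unit, although the libraries of a group may be repeats of 1 pool. In that case this p is too small. Kept in the library total, the other canine genes moved less, from 4.59% to 5.42% in tumour-free libraries to 6.50% in each OSCA-32 library and to 7.34% and 7.65% with OSCA-40. Relative to the summed mouse genes they were 2.14-fold higher with OSCA-32 and 4.56-fold higher with OSCA-40 than with PBS, while ENSCAFG00000032276 was 3.29-fold and 7.25-fold higher on the same scale.

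The canine values were concentrated in the 4 genes throughout, and more so in tumour libraries. They held 68.3% to 69.6% of the canine sum in tumour-free libraries, 85.5% and 85.0% with OSCA-32 and 89.3% and 89.2% in the OSCA-40 libraries. Beside them, the tumour-free libraries listed 1065 to 1128 other canine genes at 1 or more. The OSCA-32 libraries listed 1804 and 1948 and the OSCA-40 libraries 2693 and 2593. This separated the tumour from the tumour-free libraries, with an exact permutation p of 0.0286, again with each library counted as 1 unit. At 10 or more the number was 144 to 155, 149 and 147, and 182 and 162, which did not separate the libraries (exact permutation p = 0.343). In all, 16166 canine genes were at 0 in every library.

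**Figure D5:**
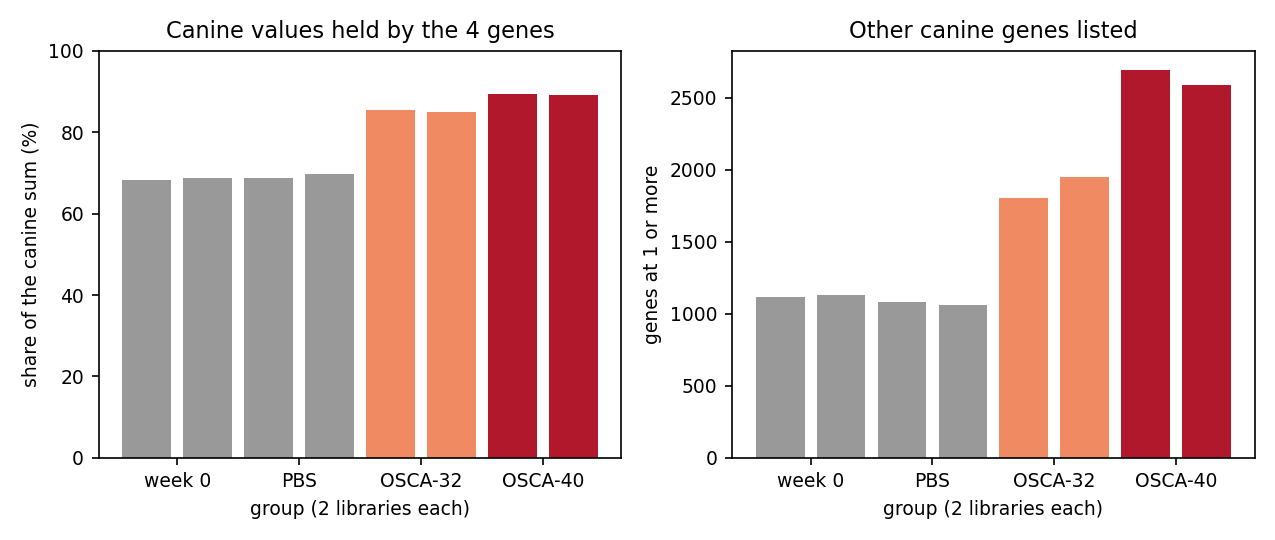
Share of the canine sum held by the 4 genes (left, %) and number of other canine genes listed at 1 or more (right), 1 bar per library. The share is 68.3% to 69.6% in tumour-free libraries and 85.0% to 89.3% in tumour libraries, and the number of genes goes from at most 1128 to at least 1804.

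The named mouse genes most like each of the 4 were found by Pearson's r over the 8 libraries on log2(scaled value + 1), among 6303 genes. The libraries are 4 pairs, so r mostly reflects 4 group levels, and it ignores the size of a change. For ENSCAFG00000032276 these were Slc7a11, a cystine transporter (r = 0.996), Tmsb4x, an actin-binding peptide (r = 0.991), and Tlr1, a receptor for bacterial lipopeptides (r = 0.983). Tmsb4x was also higher as deposited, at 36 to 43 in tumour-free libraries, 85 and 65 with OSCA-32 and 95 and 88 in the OSCA-40 libraries. Slc7a11 was lower as deposited, at 169 to 179, then 126 and 129, then 67 and 64. Tlr1 was lower too, at 9130 or more without a graft, then 8921 and 8225, then 5545 and 5200. For ENSCAFG00000031490 they were Adgrv1, an adhesion receptor (r = 0.988), and Coa4, a cytochrome oxidase assembly factor (r = 0.987). Mdm2, a regulator of p53 (r = 0.983), came next and was listed at only 1 in each OSCA-40 library. Deposited values of Adgrv1 and Coa4 did not rise with OSCA-32 as ENSCAFG00000031490 did. Adgrv1 was 80 and 86 there, against at least 106 without a graft, and Coa4 was 42 and 42, against at least 52. For ENSCAFG00000030616 the most alike were the pseudogene Mdm4-ps (r = 0.991), the ubiquitin-conjugating enzyme gene Ube2l6 (r = 0.985) and Fcrl6 (r = 0.978), none above 119 in any library. Each of them was lowest as deposited with OSCA-40, where ENSCAFG00000030616 was highest. Ube2l6 fell from at least 116 without a graft to 49 and 46, Mdm4-ps from at least 13 to 6 and 6, and Fcrl6 from at least 13 to 10 and 10. For ENSCAFG00000031885 they were Galntl6 (r = 0.965), Zfp804a (r = 0.954) and the chemerin receptor gene Cmklr1 (r = 0.932), none above 27. Of the 213 other canine genes, 91 (42.7%) reached r = 0.9 with ENSCAFG00000032276 and 69 (32.4%) with ENSCAFG00000030616, and none with the other pair. Of the mouse genes tested, 2.13% reached it with ENSCAFG00000032276 and 1.28% with ENSCAFG00000030616.

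Markers were read as background for the labelled material. All 13 vesicle components on the list were in the table, 5 passed the filter, and the tetraspanin Cd9, at 192 to 234 in tumour-free libraries, was the only one above 19 in any library. Summed, they came to 0.0338% to 0.0415% of the summed mouse genes in tumour-free libraries, 0.0311% and 0.0323% with OSCA-32 and 0.0176% in each OSCA-40 library. The 7 platelet genes went from 0.0119% to 0.0162% without a graft to 0.0255% and 0.0314% with OSCA-32 and to 0.0615% and 0.0657% in the OSCA-40 libraries. Pf4 and Tmsb4x carried this. The 5 other platelet genes summed to 0.00471% to 0.00636% in tumour-free libraries, 0.00735% and 0.00556% with OSCA-32, and 0.00801% and 0.00725% in the OSCA-40 libraries. Tmsb4x is also among the genes most like ENSCAFG00000032276, above. The 8 erythroid genes stood at 0.0380% to 0.0605%, at 0.0484% and 0.05002%, and at 0.0830% and 0.0988%, and the 8 hepatocyte genes at 0.00672% to 0.00930%, 0.0111% and 0.0134%, and 0.0160% and 0.02004%. The 7 lymphoid and myeloid genes stood at 0.00536% to 0.00829%, 0.00478% and 0.00627%, and 0.00353% and 0.00484%. No marker was at 0 in all 8 libraries. Relative to the summed mouse genes, the platelet and hepatocyte sums are ordered across the groups like ENSCAFG00000032276. As deposited, the hepatocyte sum was not: it came to 56 to 77 in tumour-free libraries, 62 to 73 with OSCA-32 and 50 to 58 with OSCA-40. Of the 8 hepatocyte genes, 3 passed the filter. Whether either sum is linked to ENSCAFG00000032276 was not tested.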

How the data were processed

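Per the labels' protocols, vesicles were enriched from serum with ExoQuick and their RNA was made into stranded total RNA libraries. The submitters' processing notes list kallisto (0.43.0), Trimmomatic (0.33.0) and FastQC (0.11.5) with the builds CanFam3.1 and GRCm38.p5, with no roles or order; the index is not given. The values, deposited under the name of counts, are used as a score, because every library sums to nearly the same total; they behave as whole-number TPM, and depth is unknown.

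Genes at 10 or more in at least 2 libraries were kept (7655 mouse, 217 canine). Values were scaled by an unweighted trimmed mean of the log ratios, with the first week 0 library as reference (30% of ratios and 5% of levels trimmed at each end). limma 3.58.1 (R 4.3.3) was fitted on log2(scaled value + 1), with a variance trend, to all 8 libraries with a mean per group (4 residual degrees of freedom, 4 comparisons). Single values were compared by exact permutation (SciPy 1.17.1). The fit was tested on simulated data. Names come from GENCODE mouse release 21, matching 31171 of 31300 mouse identifiers. A list of 37 structural RNAs matched no row used here. The members, lists and rules were chosen with earlier results of these data known. Named genes are the 4 genes and, for each, the 3 mouse genes with an established symbol and the highest r. Alternatives were other scalings, filters and pseudocounts, the replicate number as a block, only the groups compared, the 4 genes removed, and each library left out.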

Additional observations from a re-analysis of the deposited data

Results flagged for a closer look

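The lines differed in 2 of the 3 genes given a p in the direct comparison of OSCA-40 with OSCA-32. In that comparison 2.62% of all genes and 32.3% of the canine genes passed. ENSCAFG00000030616, listed at 0 and 13 for OSCA-32 against 564602 and 582489 for OSCA-40, has no p there because the OSCA-40 values placed it among the 4 genes. ENSCAFG00000031490 had a log2 fold change of -14.15 ± 0.09 (limma adjusted p = 6.17e-10), and both OSCA-40 libraries were lower, at 8 and 8. The SE leaves out the whole-number step at that level. Against PBS this gene was higher with OSCA-32 and lower with OSCA-40. ENSCAFG00000032276 had a log2 fold change of 1.33 ± 0.10 (limma adjusted p = 0.00128), and both OSCA-40 libraries were higher, and it was higher with each line than with PBS.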

How the results depend on the processing

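ENSCAFG00000031490 and ENSCAFG00000032276 kept the sign and the call in each comparison of a tumour group with PBS under all 17 alternatives. ENSCAFG00000031885 did not pass with scaling on the bulk of genes. On library totals alone it took -1.53 against PBS and -0.91 against OSCA-32 with OSCA-40, and without a filter -0.11 and -0.077. Its values near 0 also turned when 1 library was left out. They ranged from -0.11 to 0.042 for OSCA-32 against PBS, turning without PBS replicate 1 or OSCA-32 replicate 2, and from -0.021 to 0.13 for PBS against week 0, turning without PBS replicate 1. ENSCAFG00000032276 in PBS against week 0 took 0.018 on library totals and -0.14 to 0.079 without 1 library, turning without week 0 replicate 2 or PBS replicate 1. None of these ranges without 1 library held a call. On library totals alone ENSCAFG00000031885 did pass, as lower, against PBS with each line and between the lines. The cause was not tested.

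Genes called over the whole table were 85 for OSCA-32 against PBS, 539 for OSCA-40 against PBS, 206 between the lines and 15 for PBS against week 0. In that order, library totals alone gave 1353, 6726, 4638 and 12, and moved the median gene by -0.55, -1.51, -0.95 and 0.05. No filter gave 166, 2434, 1728 and 2, and only the groups compared gave 45, 316, 80 and 2. A mean of at least 50 gave 131 and 25 for the first and last. The replicate block gave 60, 455, 130 and 5. The labels do not say whether the replicate numbers pair the libraries. Replicate differences correlated between groups at -0.057 to 0.0059, which cannot exclude a small shared effect. The block changed no call of the 3 genes other than ENSCAFG00000030616, for which no alternatives were run. Leaving out 1 library gave 37 to 84, 269 to 524, 63 to 182 and 2 to 10. The count moved most without a PBS library (41 and 37, and 269 and 288) or an OSCA-32 library (46 and 55), and between the lines without any library other than those of OSCA-40 (63 to 115).

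The summed share difference of 38.9 points was 34.4 to 43.2 without 1 library, 123 as a percentage of mouse genes and 8.56 for ENSCAFG00000031490 and ENSCAFG00000031885 alone. That last value averages opposite directions: this pair held 35.4% of the library with OSCA-32 and 1.64% with OSCA-40, against 9.97% in tumour-free libraries. The difference in the share of the canine sum, 18.3 points, was 17.7 to 19.1 without 1 library. The other canine genes' share difference was 7.68 to 11.2 and their number 1017 to 1314 higher without 1 library, each with exact permutation p = 0.0571, the smallest that 3 against 4 libraries allow. At a minimum of 10 the difference was 10 genes (exact permutation p = 0.343). Depth is unknown, so no confidence interval is given for any value near 0. With a pseudocount of 4, ENSCAFG00000031490 took -10.61 for OSCA-40 against PBS and -13.99 for OSCA-40 against OSCA-32.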

Other observations

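Next to the 4 canine genes, the mouse genes with the highest mean were the predicted genes Gm10800 (chromosome 2, 98666547 to 98667301, GRCm38) and Gm10801 (chromosome 2, 98662237 to 98664083). Gm10800 came to 19.0% to 20.9% of the summed mouse genes in tumour-free libraries, 18.4% and 18.9% in the OSCA-32 libraries, and 20.6% and 19.6% in the OSCA-40 libraries. Gm10801 came to 6.11% to 6.73%, 5.48% and 5.69%, and 5.13% and 5.27%. ENSCAFG00000031885, a canine gene, lay between 5.20% and 5.79% in all 8 libraries on the same scale.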
